A study of Daphnia magna with 30 samples.

Results

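The transcripts described here are the 150 microarray probes whose level varied least over 30 arrays of individual Daphnia magna, out of the 8835 probes, of 14338 on the array, whose spots were flagged well above background in every animal. The level of a probe is the log2 of its processed fluorescence signal minus the log2 of the array's 75th percentile, so that 0 is the 75th percentile and a difference of 1 is a doubling. The 150 members were those with the smallest standard deviation (SD) of this level over the 30 arrays. Because that SD chose them, SDs, ranges and coefficients of variation of the members in the same 30 arrays are descriptions and were not tested.

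Daphnia magna, a freshwater crustacean that reproduces clonally, was reared from under 1 day after hatching to 21 days of age at 25 °C under 5 photoperiods, written as hours of light and of dark: the short days 4L:20D and 8L:16D, the even 12L:12D, the control and culture condition 16L:8D, and the long day 20L:4D. All animals were adult females of a single genotype, started from one individual, and whole animals were extracted, so that tissues and any brood carried were measured together. The study collected them within 1 hour of the start of the light phase. Each photoperiod was given in 1 box that held 3 replicate chambers, and 2 animals from each chamber (letters A and B in the labels) were hybridised singly, giving n = 6 arrays per photoperiod in the first of the study's trials. Photoperiod and box cannot be told apart. The p-values measure the spread between animals, which were taken 2 to a chamber and, unless stated otherwise, treated as independent. A change in RNA per cell and a change in the share of a cell type cannot be told apart in whole animals either.

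A reference transcript is one whose level is taken to be constant, so that the level of another transcript can be expressed relative to it. Such transcripts correct for unequal amounts of starting RNA and unequal efficiency of labelling or reverse transcription, and they are usually taken from functions that every cell needs, such as protein synthesis, the cytoskeleton or basic energy metabolism. Whether a candidate is fit for use depends on the treatment studied, since a gene that is constant under one condition can respond to another, and on its level, since a reference should lie near the level of the transcripts it is compared with. In Daphnia, a photoperiod response changes reproduction and behaviour in the whole animal, so a reference for such work has to be steady across day lengths.

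The 30 arrays had a 75th percentile of 359 to 643 intensity units, and 70.1 to 90.1% of their spots were well above background. No spot was saturated. Vitellogenin, the yolk precursor made by reproducing females, was read by probe DM00375P2 and was well above background on 30 of 30 arrays with an SD of 0.49.

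The SD of the 150 members over the 30 arrays ran from 0.0954 to 0.169 with a median of 0.152, against a median of 0.374 and a highest value of 4.16 over the 8835 probes. On the linear scale the members had a coefficient of variation of 6.51 to 12.3% (median 10.5%), against a median of 25.9% over the 8835 probes. The highest of the 30 animals exceeded the lowest by a median of 1.56-fold in the members, and by at most 1.86-fold. The limit of 150 did not fall in a gap. The 3 members just inside it, DM11839P2, DM01332P1 and DM04113P3, had SDs of 0.1684, 0.1690 and 0.1690, and the 3 probes just outside, DM00508P4, DM04351P3 and DM00502P3, had SDs of 0.1690, 0.1698 and 0.1699.

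The members covered most of the range of levels. Their mean levels ran from -3.40 to 7.06, which is a span of 1410-fold in signal, from 46.9 to 65763 intensity units. They were nevertheless placed towards the upper levels. In all, 106 members lay above the 75th percentile of the array and 44 below it, while 38.7% of the 8835 probes lay above it. When the 8835 probes were divided by mean level into 4 classes of equal size, 2, 23, 45 and 80 members fell in the classes from the lowest to the highest, although the median SD of all probes in those classes differed little, at 0.385, 0.373, 0.357 and 0.375. Choosing instead the 150 probes with the smallest SD relative to a smoothed trend of SD on level kept 141 members and put 5, 22, 38 and 85 probes in the same classes.

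**Figure D1:**
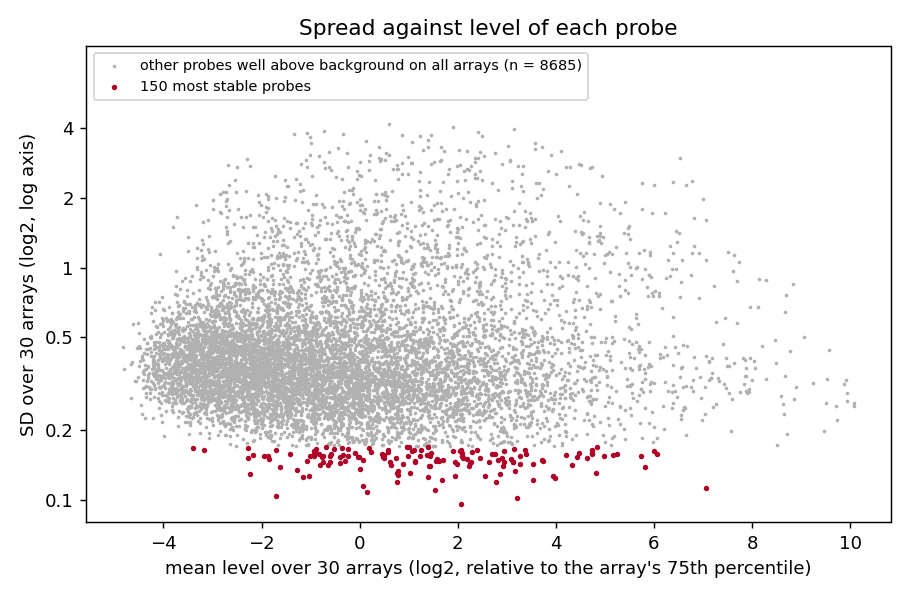
SD of each probe over the 30 arrays (log2, log axis) against its mean level (log2, relative to the array's 75th percentile), with the 150 members in red and the other 8685 detected probes in grey. The members form the lower edge of the cloud, from a mean level of -3.40 to 7.06, and 2 of them lie below a level of -2.28.

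The steadiest member was DM03301P1, with an SD of 0.0954 at a mean level of 2.07. Its lowest, median and highest levels were 1.92, 2.05 and 2.10 under 4L:20D, 1.94, 2.03 and 2.14 under 8L:16D, 1.93, 2.13 and 2.19 under 12L:12D, 1.86, 2.15 and 2.18 under 16L:8D, and 1.89, 2.04 and 2.19 under 20L:4D. The ranges of all 5 photoperiods overlapped, and the lowest animal of the 30, at 1.86, was a control. The other controls lay at 2.13 to 2.18, above every 4L:20D animal. The highest animal exceeded the lowest by 1.26-fold. DM01713P4 was next, with an SD of 0.102 and a mean level of 3.21. Its median was 3.15 under 4L:20D, 3.16 under 8L:16D, 3.32 under 12L:12D, 3.19 under 16L:8D and 3.24 under 20L:4D, so that the 12L:12D animals were higher by about 1 SD, and their range of 3.17 to 3.36 overlapped that of every other photoperiod.

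DM09912P3 was the steadiest of the weakly expressed members, with an SD of 0.104 at a mean level of -1.70. Its medians lay between -1.74 under 20L:4D and -1.66 under 8L:16D, and its single highest animal, at -1.43, was a control. DM00094P3 had the smallest range of photoperiod means among the 150 members. Its means were 0.13, 0.13, 0.14, 0.14 and 0.16 from the shortest to the longest day, a range of 0.030, with an SD of 0.108 over all animals. Of the variation of this probe, 1.02% lay between photoperiods.

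At the top of the range, DM01553P1 combined the highest mean level of the members, 7.06, with the sixth smallest SD, 0.112. Its lowest, median and highest levels were 6.88, 6.97 and 7.12 under 4L:20D, 7.05, 7.15 and 7.24 under 8L:16D, 6.93, 7.11 and 7.20 under 12L:12D, 6.90, 7.03 and 7.32 under 16L:8D, and 6.92, 7.03 and 7.11 under 20L:4D. The 4L:20D animals were lowest on average and the 8L:16D animals highest, and the highest animal was a control. The other 5 of the 10 steadiest members, DM07101P2, DM00970P1, DM04035P1, DM02258P2 and DM06114P3, had SDs of 0.110 to 0.121 and mean levels of 0.076 to 3.53. DM02258P2 owed its place to 29 of its 30 animals: the 4L:20D animal at 3.17 stood 0.40 above its mean of 2.77.

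**Figure D2:**
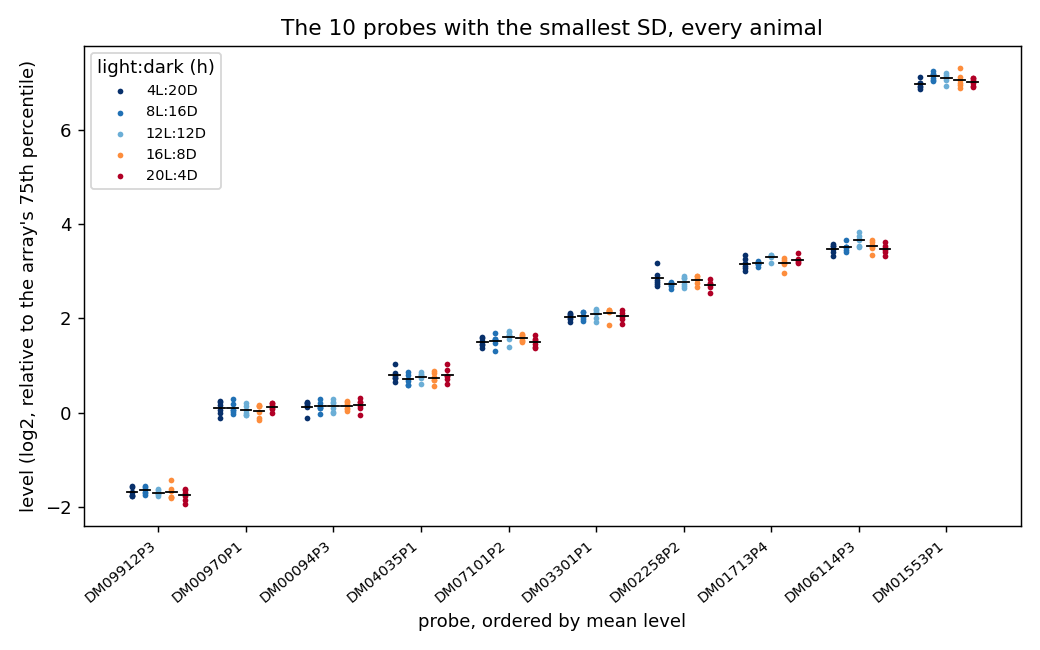
Level (log2, relative to the array's 75th percentile) of the 10 members with the smallest SD in each of the 30 animals, with photoperiods in colour from the shortest to the longest day and black bars at each photoperiod mean (n = 6). Within each probe the 5 photoperiods overlap, and the 10 probes spread from a mean level of -1.70 to 7.06.

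The other highly expressed members were DM01198P1, DM03004P1, DM04128P2 and DM04203P1, at mean levels of 6.07, 5.998, 5.83 and 5.75 with SDs of 0.157, 0.162, 0.139 and 0.154. DM03004P1 was measured on 29 arrays, because its spot was an outlier on 1 control array. The lowest levels were those of DM07933P3, DM13347P1, DM09431P1, DM13648P2 and DM09538P4, from -3.40 to -2.23, with SDs of 0.167, 0.164, 0.151, 0.168 and 0.129. Of the members, DM07933P3 and DM13347P1 alone lay in the lowest of the 4 level classes, at mean signals of 46.9 and 54.9 intensity units. Their SDs ranked 143 and 137 among the 150. Over all members, 12 values were missing as outlier spots, in 6 members, and the fewest arrays for any member was 23.

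The remaining photoperiod effect was examined with limma on all probes, with photoperiod, letter and their interaction as terms and Benjamini-Hochberg adjustment over all 14336 probes tested. A low total SD leaves room only for small differences, so the counts below are read as a description of what remained. No member passed an adjusted p of 0.05 for photoperiod, where 10 probes passed in all (0.0698%). At an unadjusted p under 0.01, 0 members passed against 2.23% of all probes, and at an unadjusted p under 0.05, 3 members (2.00%) passed against 11.3%. The smallest adjusted p among the members was 0.421.

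The moderation widened the errors of these probes. limma draws each probe's variance towards a common value, here an SD of 0.398 with the weight of 2.10 residual degrees of freedom, whereas the median residual SD of the members was 0.146. The standard error of a difference from the control was raised by this from a median of 0.0846 to 0.107. In the ordinary F test without moderation, 7 members (4.67%) had an unadjusted p under 0.01 against 2.50% of all probes, and 19 members (12.7%) had an unadjusted p under 0.05 against 11.3%. No member passed after adjustment, against 0.0628% of all probes. Without moderation the members' shares were thus near or above those of all probes. The share of a probe's variance between photoperiods, which does not depend on the size of its SD, had a median of 16.7% in the members and 17.0% in the 8835 probes. The members varied less in absolute terms, and about the same part of what they varied lay between photoperiods. These shares include the part that arises by chance without any photoperiod effect, which was not subtracted.

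In absolute terms the differences were small. The range of the 5 photoperiod means had a median of 0.16 and a maximum of 0.35 in the members, against a median of 0.42 in the 8835 probes. Relative to 16L:8D, the members' differences ran from -0.26 to 0.25 under 4L:20D, from -0.34 to 0.22 under 8L:16D, from -0.25 to 0.19 under 12L:12D and from -0.19 to 0.23 under 20L:4D. No member passed an adjusted p of 0.05 in any of these 4 comparisons, where 0.0558, 0.0139, 0 and 0% of all probes passed. At an unadjusted p under 0.05, 8, 9, 2 and 1 members passed, which is 5.33, 6, 1.33 and 0.667% of them, against 8.84, 14.2, 5.91 and 5.28% of all probes.

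The 8L:16D animals stood somewhat lower than the rest over the members as a group. The median difference of the members from 16L:8D was -0.03 under 8L:16D, 0.00 under 4L:20D, 0.01 under 12L:12D and 0.02 under 20L:4D, and 56 of the 150 members were above the control under 8L:16D, against 78, 79 and 90 in the other photoperiods. Over all probes the median difference under 8L:16D was 0.02, of the other sign. The lowest of the 5 photoperiod means was that of 8L:16D in 53 members, and the highest was that of 20L:4D in 39 members. Members on one array are not independent in such counts: their median deviation from their own means ran from -0.079 to 0.082 over the arrays.

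DM01760P1 had the smallest photoperiod p. Its lowest, median and highest levels were 2.74, 2.88 and 3.06 under 4L:20D, 2.51, 2.65 and 2.73 under 8L:16D, 2.73, 2.84 and 2.99 under 12L:12D, 2.66, 2.81 and 2.86 under 16L:8D, and 2.86, 2.96 and 3.07 under 20L:4D. The 8L:16D animals were the lowest and did not overlap the 20L:4D animals. Photoperiod accounted for 59.7% of its variance, with an unadjusted p of 0.0198 and an adjusted p of 0.421 by limma, and of 0.00054 and 0.187 by the ordinary F test. Slide accounted for 51.6% of its variance as well, and the photoperiods were spread unequally over the slides.

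DM11839P2, which lay just inside the limit of 150, had its lowest levels under 8L:16D. Its lowest, median and highest levels there were 4.50, 4.65 and 4.76, against 4.82, 4.99 and 5.15 under 16L:8D, and the 2 groups did not overlap. In the other photoperiods the medians were 4.84, 4.96 and 4.91 under 4L:20D, 12L:12D and 20L:4D. The difference of 8L:16D from the control was -0.34 ± 0.10 (SE, n = 6 per group), with a limma adjusted p of 0.245, and it was the largest of any member against the control in absolute size.

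DM07985P2 was highest under 4L:20D, with a lowest, median and highest level of 1.56, 1.63 and 1.76, and lowest under 8L:16D, with 1.07, 1.33 and 1.45. These 2 short-day groups did not overlap each other, and the control animals, at 1.36 to 1.58, overlapped both. Its photoperiod means spanned 0.35, the widest of the 150 members, with a limma unadjusted p of 0.0287 and an adjusted p of 0.421. DM01409P1 followed day length more evenly. Its medians were -1.09, -1.13, -0.98, -0.80 and -0.81 from the shortest to the longest day, and its slope was 0.018 per hour of light, with a limma unadjusted p of 0.0041 and an adjusted p of 0.261. DM12263P3 had medians of 4.36, 4.40, 4.51, 4.61 and 4.47 in the same order, with a photoperiod unadjusted p of 0.0642 and an adjusted p of 0.469 by limma. In all, 8 members (5.33%) had an unadjusted p under 0.05 for a linear relation to hours of light, against 14.4% of all probes, and none passed after adjustment, against 0.0837% of all probes.

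**Figure D3:**
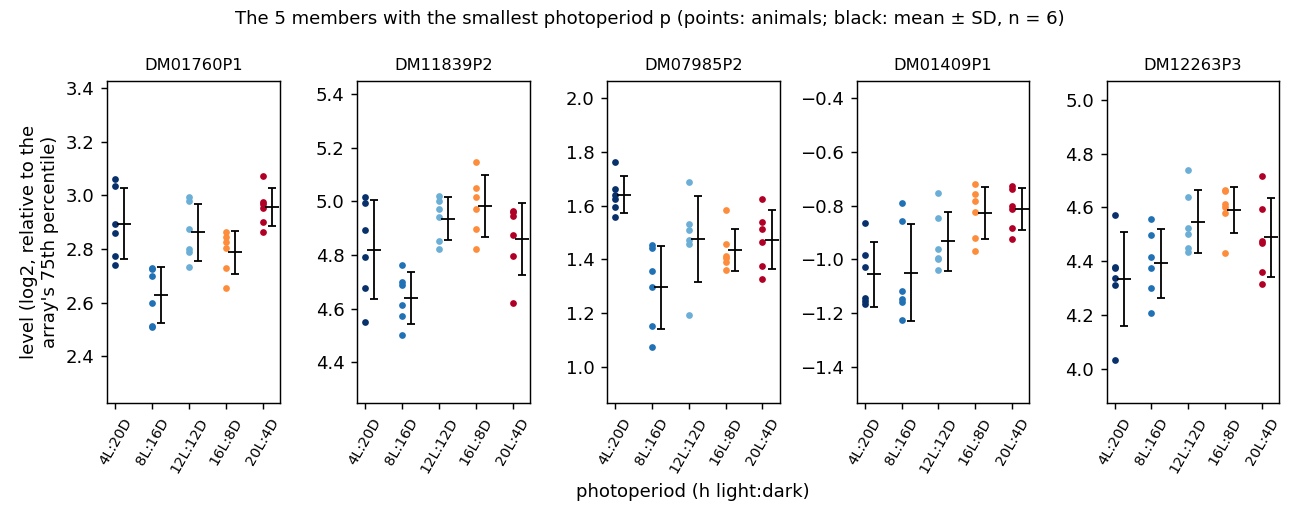
Level (log2, relative to the array's 75th percentile) of the 5 members with the smallest photoperiod p, with a point for each animal and the mean ± SD in black (n = 6), on axes of equal span. DM01760P1, DM11839P2 and DM07985P2 are lowest under 8L:16D, while DM01409P1 and DM12263P3 have lower medians under 4L:20D and 8L:16D than in the other photoperiods.

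The 95% intervals of the 4 differences from 16L:8D are given as a description, since a small SD over the same arrays makes them narrow. For all 150 members every interval lay within 1.5-fold in either direction, which was so for 14.1% of all probes and 22.2% of the 8835. The farthest limit of a member's intervals had a median of 1.28-fold and a maximum of 1.47-fold. At the narrower bound of 1.2-fold, 3 members met it, DM03301P1, DM09912P3 and DM00094P3, against 0.0209% of all probes. With the ordinary standard errors 25 members met it. With slide in place of the letter and interaction terms, 143 members had all their intervals within 1.5-fold, against 150 with photoperiod as the only term. Without the 6 arrays at position 1 along their slide, 145 did.

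The letter and interaction terms of the model were examined in the same way. Slide was examined in a separate model, with photoperiod and slide as terms and without the letter. For letter, the interaction of letter with photoperiod, and slide, 0 members had a limma unadjusted p under 0.05, against 1.90, 3.66 and 11.4% of all probes, and 0 passed after adjustment, against 0, 0 and 0.481%. The moderation described above bears on these counts too. In the ordinary F test, 3, 4 and 15 members (2, 2.67 and 10%) had an unadjusted p under 0.05, against 1.89, 3.70 and 11.6% of all probes. The variance share of slide, as for photoperiod, was similar to that of other probes, with a median of 29.5% in the members and 29.8% in the 8835 probes. It was highest in DM10167P1, at 67.7%. As for photoperiod, these shares include a part that arises by chance, larger for slide because there were more slides than photoperiods.

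Fitness as reference transcripts was measured first in animals that had no part in the choice. When the 150 probes with the smallest SD were chosen on the 15 letter A arrays alone, their median SD was 0.139 in those animals and 0.185 in the 15 letter B animals, where the median of all probes well above background on the letter A arrays was 0.376. All 150 had an SD in the letter B animals below that median, and 115 of them (76.7%) were among the lowest 10% of probes there. When the choice was made on letter B, the median SD was 0.135 in those animals and 0.188 in letter A, against 0.384, with 148 below the median and 108 (72.0%) among the lowest 10%. The SD in the animals not used was thus 1.34 and 1.39 times that in the animals used for the choice, and 0.492 and 0.489 times the median of all probes. The A and B animals came from the same 15 chambers and the same boxes, and 7 of the 9 slides held arrays of both letters (both animals of a chamber shared a slide in 1 chamber), so they are separate animals and not a separate experiment.

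The photoperiod effect in the animals not used can be read in the same way. For the probes chosen on letter A, the range of the 5 photoperiod means in letter B (n = 3 each) had a median of 0.24, against 0.53 for all probes, and the median share of variance between photoperiods was 27.1% against 28.0%. For those chosen on letter B the values in letter A were 0.28 against 0.58, and 32.5% against 33.6%. As above, these shares include a part that arises by chance and was not subtracted. That part is larger here, because each photoperiod had fewer animals (n = 3). The shares can therefore be compared with those of all probes in the same animals, but not with the shares over all arrays. The chosen probes had smaller photoperiod differences in animals not used to choose them, in proportion to their smaller spread.

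**Figure D4:**
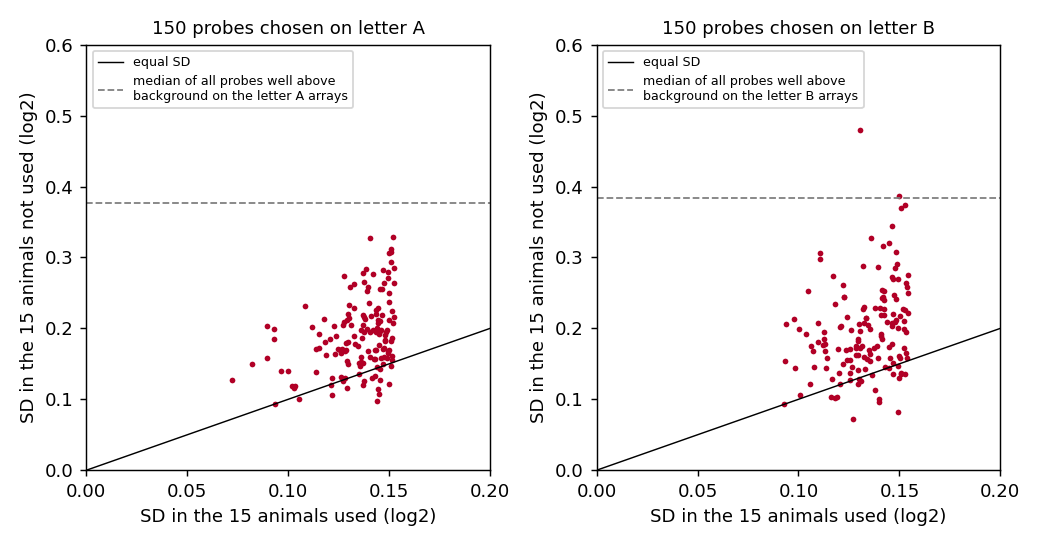
SD in the 15 animals of the other letter (log2) against SD in the 15 animals used to choose (log2), for the 150 probes chosen on letter A arrays (left) and on letter B arrays (right). Most points lie above the line of equal SD, and 150 and 148 of them lie below the dashed median of all probes, with DM05863P1 the highest at 0.48 on the right.

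Membership was less reproducible than steadiness. Of the 150 probes chosen on letter A, 88 were members and 36 were also chosen on letter B, and 86 of those chosen on letter B were members. All 36 probes chosen on both letters were members, and they included each of the 10 steadiest. Members were ranked on the arrays of both letters together, so these overlaps with the members follow in part from the choice. Only the 36 compare separate animals. DM03301P1 had SDs of 0.0933 and 0.0930 in letters A and B. DM09912P3 had SDs of 0.0719 and 0.127, and DM02258P2 of 0.0820 and 0.149, so that the SDs of one leading member in 15 animals and in 15 others differed by up to 1.82 times.

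In the arrays used for the choice, the mean of several members was steadier than the steadiest one. The SD over the 30 arrays was 0.0954 for the leading member alone, 0.0728 for the mean of 2 members, 0.0466 for 3, 0.0424 for 10 and 0.0408 for all 150. The values for 5 and 50 members were 0.0480 and 0.0387. In the animals not used for the choice the figures were higher: for probes chosen on letter A, the SD in letter B was 0.127 for 1 probe, 0.0673 for 3, 0.0936 for 5, 0.0665 for 10, 0.0559 for 50 and 0.0590 for 150. For probes chosen on letter B the SD in letter A was 0.0933, 0.101, 0.0923, 0.0861, 0.0480 and 0.0480 for the same numbers of probes. In neither direction did the SD fall at every step, and panels of 50 were steadier than panels of 3 in both.

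The geNorm M value, which is used to rank reference candidates, is the mean SD of the log2 ratio of a candidate to each other candidate. Here it describes probes already chosen for a small SD on the same arrays, and it was not tested. Among the 150 members M ran from 0.164 to 0.223 with a median of 0.202. The lowest were DM03301P1 (0.164), DM01713P4 (0.171), DM04035P1 (0.173), DM00970P1 (0.175) and DM06114P3 (0.177), all of them among the 10 members with the smallest SD. DM09912P3 ranked 25 by M, against 3 by SD. When M was computed over all 8835 probes, 99 of the 150 probes with the smallest M were members.

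Correlations between members were mostly weak. Over the 11175 pairs of members the correlation across the 30 arrays had a median of 0.070, with 25th and 75th percentiles of -0.10 and 0.24 and extremes of -0.66 and 0.89. All pairs share the arrays and the scaling, and no test was made. In 15 pairs, involving 27 members, the correlation exceeded 0.7. The highest was that of DM11484P1 and DM11737P3 (r = 0.89), with mean levels of 3.95 and 3.26, whose log2 ratio had an SD of 0.065 over the 30 arrays. It was followed by DM04128P2 and DM01198P1 (r = 0.82), both among the most highly expressed members, and by DM12380P1 and DM10584P1 (r = 0.79).

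The members were printed in duplicate more often than other probes. Of them, 25 (16.7%) were printed as 2 spots whose mean was used, against 6.54% of the 8835 probes. The noise between duplicate spots had a median SD of 0.105 in these 25 members, and accounted for a median of 24.8% of the variance of their 2-spot means. With only the first spot of each such probe, their median SD rose from 0.154 to 0.171, 13 of the 25 remained among the 150 steadiest, and 138 of the 150 members remained in all. The members also lay unevenly on the array. When its 82 columns were divided into 3 equal bands, the last band held 73 members (48.7%) and 35.5% of the 8835 probes, the middle band 41 members and the first band 36, while the median SD of all probes in the first, middle and last band was 0.384, 0.371 and 0.367. The part that position played in membership was not tested.

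The members' largest departures were concentrated on a few arrays. The array on which a member was farthest from its own mean was 4L:20D chamber 3 letter B in 27 members, 16L:8D chamber 3 letter A in 25 and 4L:20D chamber 1 letter A in 18, together 70 of 150 (46.7%). The SD of the members' deviations was 0.227, 0.217 and 0.198 on these 3 arrays and 0.103 to 0.175 on the other 27. The 3 arrays also had the lowest shares of spots well above background, 70.1 to 77.3% against 78.8 to 90.1% on the others. They had position 1 of the 4 positions along a slide, as read from the array index in the names of the deposited data, as did 3 other arrays. These 6 arrays held 3 animals from 4L:20D, 2 controls and 1 from 8L:16D, and no animal from 12L:12D or 20L:4D, so position and photoperiod were not balanced. The 6 arrays at position 1 held the largest departure of 84 members (56.0%) with 20.0% of the arrays.

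**Figure D5:**
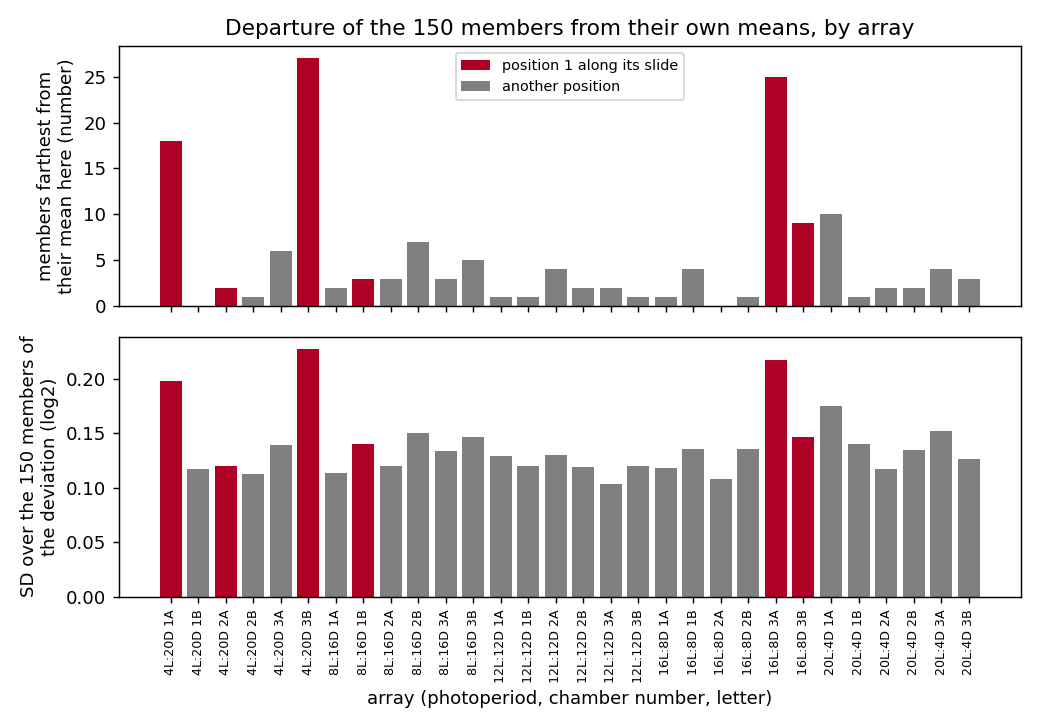
For each of the 30 arrays, the number of members that were farthest from their own mean on that array (top) and the SD over the 150 members of the deviation from their own means (log2, bottom), with the 6 arrays at position 1 along their slide in red. The 3 tallest bars, 27, 25 and 18 members, are all at position 1, and the other 3 arrays at that position hold 9, 3 and 2.

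The members did not depart in one direction on these arrays. Across the 150 members the deviations on the 3 arrays correlated by 0.036, -0.12 and 0.11 between pairs of arrays, and the median deviation of the members on each of them was between -0.054 and 0.039. Over the 8835 probes the same pairs correlated by -0.14, 0.40 and -0.051, the 0.40 being between the 4L:20D arrays. The members were chosen for a small spread over these same arrays, so their values do not describe the arrays as such. Without the 3 arrays the median SD of the members was 0.137, against 0.348 for the 8835 probes, and 90 of the 150 members remained among the 150 steadiest. Without all 6 arrays at position 1 it was 0.137 and 79 remained.

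The members can be set against the scaling itself. Before scaling, the SD of the log2 signal over the 30 arrays had a median of 0.279 in the members and 0.434 in the 8835 probes. After scaling to the 75th percentile these became 0.152 and 0.374. The median deviation of the members per array, which is what scaling to the members would change, had an SD of 0.047 and never exceeded 5.86% in signal. When the arrays were scaled to the median of the 150 members in place of the 75th percentile, 12 probes passed the adjusted photoperiod threshold, against 10.

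The choice of members depended on the processing more than their steadiness did. Of the 150 steadiest probes, 143 were shared with the list from the study's deposited log2 values, 128 with the 75th percentile taken over the 8835 probes, 106 with quantile normalisation and 77 with scaling to the array median. In each of these, at least 148 of the members were among the 10% of probes with the smallest SD. A background correction by the normexp model, with an offset of 50 intensity units added before quantile normalisation, gave a different list that shared 2 members. There, 147 of the 150 steadiest probes were in the lowest of the 4 level classes, and 38 members were among the 10% with the smallest SD, although all 150 stayed below the median.

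The functions of the members could not be read from the sources used here. The files give a design name for each probe, and 0 of 14338 names matched the symbols, locus tags or synonyms of the 28335 genes in the RefSeq table. The study's supplementary annotation covers 958 probes of the array that it listed for an effect in either trial, of which 581 were among the 8835 (6.58%) and 0 among the 150 members. For the first trial this follows from the choice, since listed probes differed between these same arrays. Of the 479 probes listed for the second trial alone, which are 5.42% of the 8835, 0 were members. The steadiest annotated probe, DM00850P2, had an SD of 0.191 and ranked 337.

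Genes of the classes from which references are usually drawn were looked up by name among the annotated probes. These probes were listed by the study for a change, so they do not stand for their classes. Of 5 annotated probes for common reference genes, such as actin, tubulin and glyceraldehyde-3-phosphate dehydrogenase, the SD ran from 0.311 to 1.64, and the steadiest ranked 2860 of 8835. The 3 annotated ribosomal proteins, which are structural parts of the ribosome, had SDs of 0.284 to 0.418. The 18 proteasome probes, which read subunits of the complex that degrades proteins, had SDs of 0.269 to 0.566, and the 10 probes for translation initiation or elongation factors had SDs of 0.260 to 0.608.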

How the data were processed

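Whole-animal RNA of 30 Daphnia magna was labelled with Cy3 and hybridised to single-colour Agilent arrays. The authors extracted intensities with Feature Extraction, version 9.5.1 per the submitters' processing notes and 10.7.3.1 per the file headers, and deposited processed signal intensity per spot with flags, and log2 values scaled to the 75th percentile and then to the median of all arrays, which were used as an alternative. Here the log2 of the deposited processed signal minus the log2 75th percentile over non-control spots was taken, outlier spots (222, or 0.0487%) were left out and duplicate spots averaged, giving 14338 probes.

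The members and lists were chosen with earlier results of these data known. Photoperiod, letter and their interaction were fitted to all probes with limma 3.58.1 in R 4.3.3, with Benjamini-Hochberg adjustment. Standard deviations, shares of variance and geNorm M were computed in Python 3.11.15. The fit was tested on simulated data. Members named are the 10 with the smallest SD, the 5 highest and 5 lowest in level, the 5 with the smallest photoperiod p and the 3 on either side of the limit; DM10167P1, DM05863P1, DM00850P2 and the correlated pairs were named after their values were seen. Normexp used the median signal and median background intensity, with an offset of 50. The number of arrays limits precision.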

Additional observations from a re-analysis of the deposited data

Results flagged for a closer look

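In 155 groups of 5 or 6 arrays, formed by each named probe and each array summary within a photoperiod, the highest or lowest array stood apart from the other arrays of its group in 8 (5.16%). Chance flags about 1 in 20 such groups. Of the 8 flags, 3 fell at position 1 along a slide, where 20.0% of all arrays were. The control array of chamber 3 letter A, at position 1, was flagged more than once. The flags are therefore not separate arrays, and their share cannot be set directly against the share of arrays.

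DM03301P1, the steadiest member, was at 1.86 in the control animal of chamber 3 letter A, while the other 5 controls lay between 2.13 and 2.18. DM00094P3 was at -0.12 in the 4L:20D animal of chamber 3 letter B, against 0.11 to 0.22 in the others. Both arrays were among the 3 on which most members departed farthest from their means. The spread of all 150 members, as the SD of their deviations, was 0.217 on that control array, against 0.108 to 0.146 on the other controls.

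DM01713P4 was at 3.17 in the 12L:12D animal of chamber 2 letter B, against 3.31 to 3.36. DM12263P3 was at 4.43 in the control of chamber 1 letter A, against 4.58 to 4.67. DM04128P2 was at 6.16 in the 20L:4D animal of chamber 1 letter A, against 5.70 to 5.82, and DM09538P4 was at -1.87 in the 8L:16D animal of chamber 2 letter B, against -2.38 to -2.24. The median deviation of the 150 members was -0.079 on the 4L:20D array of chamber 3 letter A, against 0.00 to 0.039 on the other arrays of that photoperiod.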

How the results depend on the processing

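No member passed the adjusted photoperiod threshold under any of the 32 alternatives, and none of the 520 refits of the 26 named members changed side of it (lowest adjusted p 0.285). The choice by a small SD on these same arrays, and the moderation, left little room for a pass, so these counts are a description. The number of members shared with the list of 150 was 77 with median scaling, 2 with normexp and quantile normalisation, 88 and 86 on letter A or B alone, 59 with the median absolute deviation, 99 with geNorm M, and, in alternatives chosen after seeing the data, 79 without the 6 arrays at position 1 and 90 without the 3 most divergent arrays; it was 120 to 144 without single chambers. The members' median SD was 0.173 with median scaling and 0.179 with normexp, 0.169 for a list of 300, and 0.146 to 0.154 without single chambers. Members with an unadjusted photoperiod p under 0.01 numbered 2 with normexp, 1 of a list of 300, 1 without the letter in the model, 7 without moderation, and 0 to 1 without single chambers, the 1 arising without 8L:16D chamber 1. Members with every interval within 1.5-fold numbered 75 of a list of 75, 300 of a list of 300 and 148 to 150 without single chambers. Over all probes, 10 passed the adjusted threshold. Without the letter and its interaction, 19 passed with photoperiod as the only term and 22 with slide added as a block. The count with slide is therefore to be set against 19. On chamber means, with photoperiod as the only term, 6 passed. In the model with the letter, 3 passed among the 8833 probes well above background that could be tested, 4 without the arrays at position 1, and 6 to 16 without single chambers. The extremes were 6 without 8L:16D chamber 1 or 3 or 12L:12D chamber 3, and 16 without 20L:4D chamber 1. The cause of these changes was not tested, apart from the fixed sizes of the lists of 75 and 300.

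Chambers of different photoperiods stood in different boxes and shared a number in the labels. Over 60 pairs of arrays with the same number and letter, the correlation of deviations from photoperiod means had a median of -0.077, from -0.64 to 0.66. Over 120 pairs with other numbers the median was -0.0011, from -0.65 to 0.76. Whether chambers of the same number shared a condition was not tested. With the replicate number as a block, in a model without the letter, 17 probes passed in all and 1 member had a limma unadjusted p under 0.01. The model without the letter and without that block gave 19 probes and 1 member.

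With n = 6 per photoperiod, 3 members had all intervals within 1.2-fold with moderation and 25 without it, so the data did not bound differences to that size in most members. The 150 were chosen in one trial of one genotype in whole animals, without gene names or sequences. Their use at other times of day, at other ages, in single tissues or by another assay was not analysed here.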
